A study of Mus musculus with 32 samples.

Results

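Inflammasomes are protein assemblies in which a cytosolic sensor recruits a caspase, and the genes described here encode their sensors, adaptor, caspases and executioner in bone marrow-derived macrophages (BMDMs). The 8 genes were taken by name from the array annotation: the sensors Nlrp3, Nlrc4, Aim2 and Nlrp1b, the adaptor Pycard (ASC), the caspases Casp1 and Casp4 (caspase-11), and the pore-forming executioner Gsdmd. They are 8 of the 16037 genes tested, and all 8 passed the requirement that a probe be well above background on at least 50% of the arrays. Their probes number 11, and the brightest probe of a gene gave its value.

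BMDMs were grown with M-CSF from the bone marrow of WT (C57BL/6) mice and of Ifnar1KO mice, which lack the IFNAR1 chain of the type I interferon receptor. Cells of each genotype were left untreated or received LPS (a TLR4 ligand, 100 ng/mL per the labels), IFN (IFNβ, 1000 U/mL per the labels), the caspase inhibitor zVAD, LPS+zVAD, IFN+zVAD, LPS+zVAD+Nec-1 or IFN+zVAD+Nec-1, where Nec-1 inhibits the kinase RipK1, and RNA was collected at 6 h. The methods and legends of the study give other doses of LPS and IFNβ than the labels, so the doses are uncertain. The 16 groups hold 2 arrays each, 32 in all. Nothing in the labels says whether the 2 arrays of a group came from separate mice or cultures, so the p-values measure the spread between these arrays, which may be technical. The cells' sex and age are not given in the sources used here.

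Values are log2 intensities after quantile normalisation, and a gene is called changed at an adjusted p under 0.05 from limma with Benjamini-Hochberg adjustment over all genes of a comparison. Probes well above background made up 54.9% to 78% of those on the WT arrays and 44.5% to 61.5% on the Ifnar1KO arrays. The arrays came from 4 slides, and every slide carried a complete set of 8 treatments from a single genotype and replicate. A genotype difference within a treatment therefore cannot be told apart from a slide difference. In treatment changes measured inside one genotype, and in their contrast between WT and Ifnar1KO, a slide difference shared by all treatments cancels. A slide difference that varies with treatment does not cancel, and in that contrast it cannot be told apart from genotype. The 2 Ifnar1KO LPS+zVAD+Nec-1 arrays stood apart from each other (r = 0.947 across genes, against 0.973 to 0.991 for the other pairs), and results that rest on them are given with and without them. Replicate 1 read 9.63 for Il1a and 15.41 for Il1b, replicate 2 2.38 and 5.34, and whether one of them was mislabelled or treated otherwise was not tested. In untreated cells the brightest Ifnar1 probe read 14.22 and 14.19 on the WT arrays and 11.9 and 11.87 on the Ifnar1KO arrays. This probe was lower still (9.04) on the WT array IFN+zVAD+Nec-1 replicate 1, below every Ifnar1KO array, while the other Ifnar1 probes were lower in Ifnar1KO in every treatment, and whether any of them lies in the deleted part is not known here. All 8 macrophage markers (Adgre1, Csf1r, Cd68, Itgam, Mertk, Fcgr1, Lyz2 and Cd14) were above background on all 32 arrays. Among the neutrophil and granulocyte precursor markers, 4 of 5 were above background on all arrays and Ly6g on 17, and their summed level was 13.44 to 15.43 on the WT arrays and 15.53 to 16.65 on the Ifnar1KO arrays. In bulk RNA, fewer cells of a type and less RNA per cell cannot be told apart.

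NLRP3, NLRC4, AIM2 and NLRP1B each answer a different kind of disturbance: loss of ion balance, bacterial flagellin and secretion rods relayed by NAIP proteins, cytosolic DNA, and bacterial toxins or proteases. Through ASC, or by a direct contact in some cases, they activate caspase-1, which cleaves the precursors of IL-1β and IL-18 and opens gasdermin D. Caspase-11 senses cytosolic LPS itself and cleaves gasdermin D, whose released end forms pores in the plasma membrane, the step that ends in pyroptosis. In macrophages this machinery is known to need a transcriptional priming step, for which LPS and type I interferon are the standard stimuli.

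Casp1 and Casp4 are neighbours on chromosome 9 and rose together in most of the WT treatments below, so the sequences before their start sites are shown. They are the 250 bases ahead of the RefSeq start site (GRCm38.p6, plus strand), at chr9:5298267-5298516 for Casp1 and chr9:5308599-5308848 for Casp4, and capitals mark matches to the NF-κB-type letters GGG, any 2 bases, TTTCC on either strand.
Casp1: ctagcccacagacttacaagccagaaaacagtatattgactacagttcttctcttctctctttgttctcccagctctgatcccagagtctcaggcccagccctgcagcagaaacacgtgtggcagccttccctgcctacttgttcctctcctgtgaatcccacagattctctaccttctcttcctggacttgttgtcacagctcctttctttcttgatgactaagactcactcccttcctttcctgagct
Casp4: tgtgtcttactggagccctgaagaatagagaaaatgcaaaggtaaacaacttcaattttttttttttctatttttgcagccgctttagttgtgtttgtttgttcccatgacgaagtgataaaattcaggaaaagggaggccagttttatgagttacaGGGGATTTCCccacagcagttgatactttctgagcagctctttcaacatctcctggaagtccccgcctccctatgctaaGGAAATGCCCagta
RefSeq start-site windows, of 250 bases before to 50 after, were found for 7 of the 8 genes (10 windows). The capitals in Casp4 lie at -93 to -84 and, on the reverse strand, at -14 to -5 relative to the start site, and 1.63% of all 32851 windows hold such a match. That pattern was written down after the Casp4 window had been read, as the last of 10 patterns searched, so its match is no more than a label on the sequence. Among the patterns searched first, 3 are given here and matched no window of the 8 genes: GAAA, any 2 bases, GAAA for the interferon-stimulated response element (3.44% of all windows), and for NF-κB the letters GGGA, any base, TTTCC (0.411%) and the looser GGGA, any 2 bases, TTCC (1.47%), which overlaps the former. Of 5 patterns added after that, GAAANNGAA (8.56%) and TGANTCA (7.81%) matched none, GAAANNGA (21%, part of the longer interferon patterns) and AGGAAGT (9.35%) matched windows of 4 genes each, and GGGAATT (3.51%) matched windows of 2. Absence of a match says only that these letters are not in the window.

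The array probes are 60-base oligonucleotides whose mm9 positions, from the scanner annotation, are chr11:59379981-59380040 for Nlrp3, chr17:74826172-74826231 for Nlrc4, chr1:175396036-175396095 for Aim2 and chr11:70966612-70966671 for Nlrp1b. The others are chr7:135136241-135136300 for Pycard, chr9:5307206-5307265 for Casp1, chr9:5336658-5336717 for Casp4 and chr15:75697536-75697595 for Gsdmd. Gsdmd is spotted 10 times on each array and the rest 1 time. Exon or untranslated-region annotation was not used here. Nlrp1b belongs to a cluster of near-identical copies, so its probe may also bind transcripts of its neighbours.

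In WT cells LPS raised 5 of the 8 genes (Nlrp3, Aim2, Casp1, Casp4 and Gsdmd) and lowered 1, Nlrp1b, where 41.7% of all genes were called, 16.1% higher and 25.6% lower. The same 5 genes were called higher and Nlrp1b lower with IFN (36.1% of all genes called), with IFN+zVAD (38.3%), with LPS+zVAD+Nec-1 (41.5%) and with IFN+zVAD+Nec-1 (32.6%). LPS+zVAD gave another picture, with 3 genes higher (Nlrp3, Casp1 and Casp4) and 2 lower (Nlrp1b and Pycard) against 51.3% of all genes. zVAD alone gave no member call where 0.00624% of all genes were called, and at an unadjusted p under 0.05 it gave 2 members (Casp1 and Casp4) and 897 genes. The median log2 change of the 8 genes was 1.4 with LPS and 1.56 with IFN, against -0.09 and -0.18 for all genes. Every one of these comparisons uses the same 2 untreated WT arrays, so their likeness is not independent evidence. A 75th percentile shift in place of quantile normalisation moved the median of all genes from -0.17 to 0.15 with LPS+zVAD, from -0.09 to 0.1 with LPS and from -0.18 to -0.02 with IFN in WT cells, and the direction of no called member turned under it.

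In Ifnar1KO cells LPS raised 3 genes (Nlrp3, Casp4 and Gsdmd) and lowered 2 (Nlrp1b and Pycard), where 25.2% of all genes were called, and LPS+zVAD raised the same 3 and lowered those 2 and Aim2 (29% of all genes called). IFN changed 0 of the 8 genes and 0% of all genes in limma's test, with 255 genes and none of the 8 at an unadjusted p under 0.05. zVAD likewise changed 0 (0% of all genes, 60 at an unadjusted p under 0.05, none of the 8). IFN+zVAD changed 0 of 8 against 0.00624% of all genes, with 595 genes and 2 of the 8 (Casp4 and Nlrp1b) at an unadjusted p under 0.05. No member was called with LPS+zVAD+Nec-1 (1.33% of all genes called) or with IFN+zVAD+Nec-1 (1.78%). At an unadjusted p under 0.05 the member counts were 0 and 2 (Casp1 and Nlrp1b), where 2086 and 1614 of all genes passed.

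**Figure D1:**
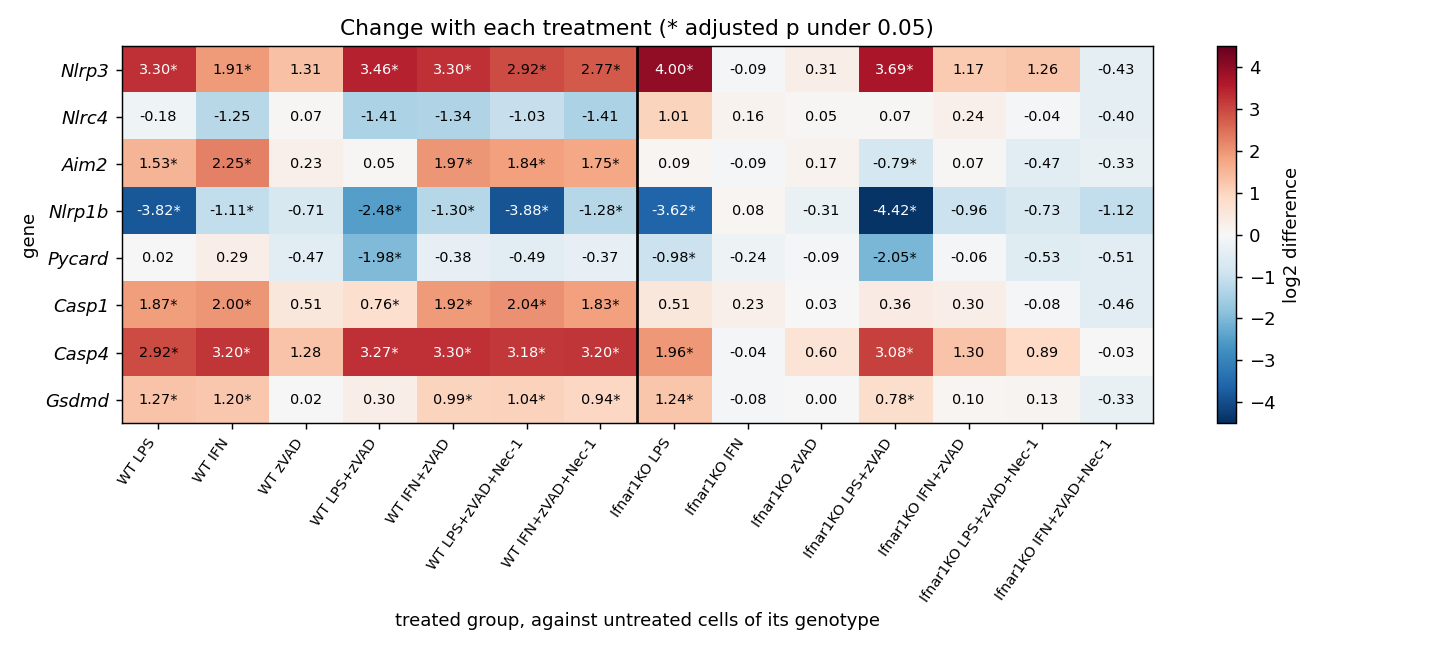
Log2 difference of each gene (rows) between each treated group and the untreated cells of its genotype (columns; WT left of the line, Ifnar1KO right); colour and printed number give the same value, and an asterisk marks an adjusted p under 0.05 from limma. Nlrp3, Casp1 and Casp4 are red and marked in 6 of the 7 WT columns, and in the Ifnar1KO columns the marks stand only in the LPS and LPS+zVAD columns.

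Nlrp3 encodes the sensor whose own transcription is the classical target of priming. It read 8.12 and 8.03 on the untreated WT arrays, 11.69 and 11.06 with LPS, and 9.24 and 10.73 with IFN. Both treated pairs lay above the untreated pair, and the IFN arrays differed widely from each other. The change was 3.30 log2 with LPS (9.84-fold, SE 0.65, adjusted p = 0.000489) and 1.91 with IFN (3.76-fold, adjusted p = 0.0281). The IFN call was lost without WT untreated replicate 1 (adjusted p = 0.0883), without WT untreated replicate 2 (0.11), without WT IFN replicate 2 (1.17 log2, adjusted p = 0.281) and in a fit of the compared arrays alone (0.0683).
With zVAD alone Nlrp3 was 9.3 and 9.48, above the untreated pair but not called (1.31 log2, adjusted p = 0.909). LPS+zVAD gave 12.12 and 10.94, and IFN+zVAD 10.81 and 11.93. Levels with Nec-1 added were 11.04 and 10.94 after LPS+zVAD and 10.37 and 11.31 after IFN+zVAD. All 4 of these groups were called higher than untreated cells, by 2.77 to 3.46 log2.
In Ifnar1KO cells Nlrp3 was 7.38 and 7.39 untreated, 11.24 and 11.53 with LPS, and 10.9 and 11.26 with LPS+zVAD. LPS raised it by 4 log2 (16-fold, adjusted p = 0.000274) and LPS+zVAD by 3.69 (adjusted p = 0.000428). The IFN arrays read 7.22 and 7.37 and the zVAD arrays 8 and 7.39, close to untreated cells. IFN+zVAD gave 8.6 and 8.52, 1.17 log2 above untreated cells (adjusted p = 1). The IFN+zVAD+Nec-1 arrays were the lowest of all, at 6.76 and 7.14, and the LPS+zVAD+Nec-1 arrays read 10.1 and 7.2, apart by more than any other pair for this gene. Without replicate 2 of that group the difference from untreated cells was 2.72 log2 (adjusted p = 0.00254), and without replicate 1 it was -0.19 (adjusted p = 0.999). A second Nlrp3 probe gave 2.58 log2 with LPS and 1.6 with IFN in WT cells.

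Aim2, the sensor of cytosolic DNA, rose in WT cells with LPS and IFN and not in Ifnar1KO cells. It read 7.82 and 8.35 untreated, 9.76 and 9.47 with LPS, and 10.13 and 10.54 with IFN in WT cells, with no overlap between treated and untreated arrays. The change was 1.53 log2 with LPS (2.9-fold, SE 0.29, adjusted p = 0.000351) and 2.25 with IFN (4.77-fold, adjusted p = 8.71e-06). With LPS+zVAD the arrays read 8.39 and 7.89, overlapping the untreated pair (0.05 log2, adjusted p = 0.894), and with zVAD alone 7.72 and 8.9. IFN+zVAD gave 9.97 and 10.15, LPS+zVAD+Nec-1 9.98 and 9.86, and IFN+zVAD+Nec-1 9.81 and 9.85, changes of 1.75 to 1.97 log2 that were all called.
In Ifnar1KO cells Aim2 stayed within a narrow band: 8.3 and 8.45 untreated, 8.26 and 8.68 with LPS, 8.32 and 8.26 with IFN, and 8.47 and 8.62 with zVAD. With IFN+zVAD it read 8.39 and 8.51, with LPS+zVAD+Nec-1 7.85 and 7.96, and with IFN+zVAD+Nec-1 8.07 and 8.02. The LPS+zVAD arrays, 7.31 and 7.86, were below the untreated pair by 0.79 log2 (adjusted p = 0.049). That call was present in 15 of 42 alternative fits. It was absent in the authors' own normalised values (-0.26 log2, adjusted p = 0.74), with normexp background correction (-0.6, adjusted p = 0.0762), without Ifnar1KO LPS+zVAD replicate 1 (-0.52, adjusted p = 0.364), and without Ifnar1KO untreated replicate 1 (0.108) or replicate 2 (0.204). It was also lost, at an adjusted p of 0.0511 to 0.0582, when either array of the LPS, IFN, IFN+zVAD or IFN+zVAD+Nec-1 groups of either genotype, of WT LPS+zVAD+Nec-1 or of Ifnar1KO zVAD was left out.

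Nlrp1b, the sensor of anthrax lethal factor in susceptible strains, was the member that fell furthest. In WT cells it read 10.73 and 10.96 untreated and 7.02 and 7.03 with LPS, a fall of 3.82 log2 (14.1-fold, SE 0.37, adjusted p = 6.29e-07). Ifnar1KO cells went from 9.07 and 9.6 to 5.66 and 5.77, a change of -3.62 log2 (12.3-fold, adjusted p = 1.36e-05). The falls with LPS in the 2 genotypes differed by 0.20 log2 (SE 0.52, adjusted p = 0.921).
IFN gave 9.97 and 9.5 in WT cells (-1.11 log2, adjusted p = 0.0255) and 9.25 and 9.58 in Ifnar1KO cells, overlapping their untreated pair. The WT IFN+zVAD arrays read 9.94 and 9.15 (-1.3 log2, adjusted p = 0.00959) and the WT IFN+zVAD+Nec-1 arrays 9.98 and 9.16 (-1.28, adjusted p = 0.0131). These 3 calls did not hold when the probes of the gene were averaged (-0.95, -1.25 and -1.3 log2, adjusted p = 0.242, 0.111 and 0.109). They were lost too when flagged spots were retained (-1.1, -1.29 and -1.27 log2, adjusted p = 0.131, 0.0721 and 0.0865), with log2 changes near those above. Without WT untreated replicate 2 they had adjusted p-values of 0.135, 0.0692 and 0.0881. In a fit of the compared arrays alone the IFN+zVAD and IFN+zVAD+Nec-1 calls were lost as well (0.0587 and 0.0801). Averaging the probes or retaining flagged spots brings in Ifnar1KO LPS+zVAD+Nec-1 replicate 1, which is otherwise left out for this gene. With flagged spots that pair read 11.14 and 8.61, and it enters the spread shared by all groups. The same holds for the Nlrp1b calls below in these fits, and its part in the losses was not tested. Without replicate 2 of the treated group the values were -0.88 log2 for IFN (adjusted p = 0.167), -0.91 for IFN+zVAD (0.131) and -0.87 for IFN+zVAD+Nec-1 (0.155), and the IFN call was also lost without WT untreated replicate 1 (0.0609).
zVAD alone gave 10.24 and 10.03 in WT and 8.65 and 9.4 in Ifnar1KO cells, with no call in either. With LPS+zVAD the WT arrays read 8.66 and 8.09 and with LPS+zVAD+Nec-1 6.92 and 7.02. The Ifnar1KO LPS+zVAD arrays, measured at 4.58 and 5.25, were not well above background, so Nlrp1b there was at least 19.3-fold lower than in untreated cells (adjusted p = 1.22e-06), where the bound sets the dim group at 5.06, the mean over its arrays of the higher of the lowest well-measured signal and the probe's own. Ifnar1KO IFN+zVAD read 8.87 and 7.88 and IFN+zVAD+Nec-1 8.08 and 8.35. In the Ifnar1KO LPS+zVAD+Nec-1 group replicate 1 was flagged as an outlier spot and left out, so the value rests on replicate 2, at 8.6; the flagged spot, itself above background, read 11.14. The second Nlrp1b probe was above background on 20 of 32 arrays. In WT cells it read 6.29 and 7 untreated and 5.51 and 6.21 with IFN, and with LPS 2.74 and 4.18, where 1 of the 2 arrays was above background.

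Nlrc4, the partner of the NAIP proteins, had no call in any of the 30 comparisons. In WT cells it was 10.27 and 10.45 untreated, 9.4 and 10.96 with LPS, and 8.09 and 10.14 with IFN. The arrays of WT replicate 1 were the lower ones in all treated groups, and the pair lay farther apart in every group that held LPS or IFN than in untreated or zVAD cells. With slide as a replicate block, which takes out only the part of this gap that all treatments share, Nlrc4 was called lower with IFN (-1.25 log2, adjusted p = 0.0222), LPS+zVAD (-1.41, 0.00797), IFN+zVAD (-1.34, 0.0144) and IFN+zVAD+Nec-1 (-1.41, 0.0122). In the fit without the block their adjusted p-values were 0.23, 0.135, 0.186 and 0.179. The block raised the calls over all genes as well, to 7971, 10229, 8285 and 7480 genes from 5783, 8233, 6149 and 5222. It also raised the all-gene count in each comparison below for which a block call is given. Leaving out replicate 2 of the treated group gave calls for WT IFN+zVAD (-2.46, adjusted p = 0.0361) and WT IFN+zVAD+Nec-1 (-2.53, adjusted p = 0.0343).
The remaining WT groups read 10.29 and 10.56 (zVAD), 8.44 and 9.45 (LPS+zVAD), 7.9 and 10.15 (IFN+zVAD), 8.51 and 10.16 (LPS+zVAD+Nec-1) and 7.83 and 10.07 (IFN+zVAD+Nec-1). In Ifnar1KO cells the levels ran from 9.51 to 11.11, and the highest pair was LPS, at 10.86 and 11.11, 1.01 log2 above the untreated 9.94 and 10.02 (adjusted p = 0.4). In a fit of those arrays alone its adjusted p was 0.013.

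Pycard encodes ASC, the adaptor that links NLRP3 and AIM2 to caspase-1. With LPS it was 14.39 and 14.69 in WT cells, level with the untreated 14.37 and 14.69, and with IFN 15.01 and 14.63. Neither was called (0.02 log2, adjusted p = 0.974; 0.29 log2, adjusted p = 0.457). A 75th percentile shift in place of quantile normalisation put the LPS change at 0.69 (adjusted p = 0.0767) and the IFN change at 0.86 (adjusted p = 0.0327). LPS+zVAD lowered Pycard to 12.95 and 12.16 in WT cells (-1.98 log2, 3.94-fold, SE 0.28, adjusted p = 8.11e-06) and from 14.26 and 14.57 to 12.24 and 12.48 in Ifnar1KO cells (-2.05, 4.14-fold, adjusted p = 4.88e-05). The falls in the 2 genotypes differed by -0.07 log2 (SE 0.39, adjusted p = 0.934).
LPS alone lowered Pycard in Ifnar1KO cells, to 13.38 and 13.5 (-0.98 log2, adjusted p = 0.0138). This call was lost without Ifnar1KO untreated replicate 2 (adjusted p = 0.121), without Ifnar1KO LPS replicate 1 (0.0881) or replicate 2 (0.0513), and under the 75th percentile shift (-0.64, adjusted p = 0.138). The difference between genotypes in the LPS change was -0.99 log2 (adjusted p = 0.152), and with the replicate block it was called (adjusted p = 0.046).
Elsewhere Pycard moved little. In WT cells zVAD gave 14.15 and 13.96, IFN+zVAD 14.46 and 13.84, LPS+zVAD+Nec-1 13.92 and 14.15 and IFN+zVAD+Nec-1 14.33 and 14. In Ifnar1KO cells IFN gave 13.83 and 14.51, zVAD 14.12 and 14.52, IFN+zVAD 14.3 and 14.41, LPS+zVAD+Nec-1 13.72 and 14.05 and IFN+zVAD+Nec-1 13.86 and 13.95. None of these 9 groups was called against untreated cells, and their changes lay between -0.53 and -0.06 log2.

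Casp1 encodes the protease that matures IL-1β and IL-18. In WT cells it read 14.98 and 15.04 untreated, 16.8 and 16.95 with LPS, and 16.99 and 17.04 with IFN. LPS raised it by 1.87 log2 (3.65-fold, SE 0.21, adjusted p = 2.27e-06) and IFN by 2 (4-fold, adjusted p = 9.14e-07), and both pairs were well clear of the untreated arrays. IFN+zVAD gave 16.92 and 16.93, LPS+zVAD+Nec-1 16.98 and 17.12, and IFN+zVAD+Nec-1 16.82 and 16.86, levels close to those with LPS or IFN alone.
LPS+zVAD, at 15.89 and 15.65, was the exception among the groups given LPS or IFN. It was 0.76 log2 above untreated cells (adjusted p = 0.00586), a call lost without WT LPS+zVAD replicate 1 (0.64, adjusted p = 0.0549), and the 75th percentile shift made it 1.82. zVAD alone gave 15.14 and 15.91 (0.51 log2, adjusted p = 0.773).
In Ifnar1KO cells Casp1 spanned 14.44 to 15.46 over all 16 arrays. It read 14.87 and 14.96 untreated, 15.38 and 15.46 with LPS, 15.28 and 15 with IFN, and 15.2 and 15.35 with LPS+zVAD. The LPS change of 0.51 log2 was not called (adjusted p = 0.0919), but calls appeared with the 75th percentile shift (0.87, adjusted p = 0.0134), without either WT zVAD array (0.0428) and without either Ifnar1KO LPS+zVAD+Nec-1 array (0.0426). The LPS+zVAD change of 0.36 log2 (adjusted p = 0.229) was likewise called under that shift (0.69, adjusted p = 0.0443). zVAD gave 14.97 and 14.91, IFN+zVAD 15.21 and 15.22, LPS+zVAD+Nec-1 15.18 and 14.48 and IFN+zVAD+Nec-1 14.44 and 14.47, the lowest pair.

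Casp4, the mouse gene for caspase-11 and the sensor of cytosolic LPS, rose more than Casp1 in WT cells. It read 13.52 and 13.65 untreated, 16.4 and 16.61 with LPS (2.92 log2, 7.57-fold, SE 0.48, adjusted p = 9.4e-05) and 16.68 and 16.9 with IFN (3.20 log2, 9.22-fold, adjusted p = 4.51e-05). LPS+zVAD gave 16.74 and 16.97, IFN+zVAD 16.69 and 17.08, LPS+zVAD+Nec-1 16.63 and 16.9 and IFN+zVAD+Nec-1 16.63 and 16.95, rises of 3.18 to 3.30 log2. The WT zVAD arrays, 14.32 and 15.42, lay between untreated and stimulated cells (1.28 log2, adjusted p = 0.7).
Ifnar1KO cells began at 12.4 and 12.44 and reached 14.35 and 14.4 with LPS (1.96 log2, 3.88-fold, adjusted p = 0.00572) and 15.53 and 15.46 with LPS+zVAD (3.08 log2, 8.44-fold, adjusted p = 0.000164). IFN left them at 12.3 and 12.46 (-0.04 log2, adjusted p = 1). zVAD gave 13.63 and 12.42, IFN+zVAD 13.91 and 13.53 and IFN+zVAD+Nec-1 12.41 and 12.38, of which the IFN+zVAD pair was above untreated cells by 1.3 log2 with an adjusted p of 1. The LPS+zVAD+Nec-1 arrays split as they did for Nlrp3, at 14.42 and 12.21, and the difference from untreated cells was 2 log2 without replicate 2 (adjusted p = 0.002) and -0.21 without replicate 1 (adjusted p = 0.999). The second Casp4 probe overlaps the one used and gave 3 log2 with LPS and 3.26 with IFN in WT cells.

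Gsdmd, the pore-forming executioner, rose with LPS by similar amounts in both genotypes. WT arrays went from 13.51 and 13.83 to 14.98 and 14.92 (1.27 log2, 2.42-fold, SE 0.24, adjusted p = 0.000311), and Ifnar1KO arrays from 12.94 and 13.17 to 14.26 and 14.33 (1.24 log2, 2.36-fold, adjusted p = 0.000971). The difference between these rises was -0.03 log2 with an SE of 0.34 (adjusted p = 0.987). IFN gave 14.8 and 14.95 in WT cells (1.2 log2, 2.3-fold, adjusted p = 0.00066) and 12.81 and 13.14 in Ifnar1KO cells (-0.08, adjusted p = 1).
In WT cells IFN+zVAD gave 14.55 and 14.79, LPS+zVAD+Nec-1 14.71 and 14.72 and IFN+zVAD+Nec-1 14.52 and 14.71, rises of 0.94 to 1.04 log2 that were called. The last was lost without WT untreated replicate 1 (0.78, adjusted p = 0.064) and in a fit of the compared arrays alone (0.0634). LPS+zVAD read 13.99 and 13.96, 0.3 log2 above untreated cells and not called (adjusted p = 0.317), but 0.87 and called under the 75th percentile shift (adjusted p = 0.0151). zVAD alone gave 13.41 and 13.98.
Ifnar1KO LPS+zVAD arrays read 13.72 and 13.95 (0.78 log2, adjusted p = 0.0194), a call lost without Ifnar1KO untreated replicate 1 (adjusted p = 0.129) and without Ifnar1KO LPS+zVAD replicate 2 (0.128). The other Ifnar1KO groups read 13.06 and 13.06 (zVAD), 13.09 and 13.23 (IFN+zVAD), 13.66 and 12.71 (LPS+zVAD+Nec-1) and 12.62 and 12.83 (IFN+zVAD+Nec-1), with no call.

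**Figure D2:**
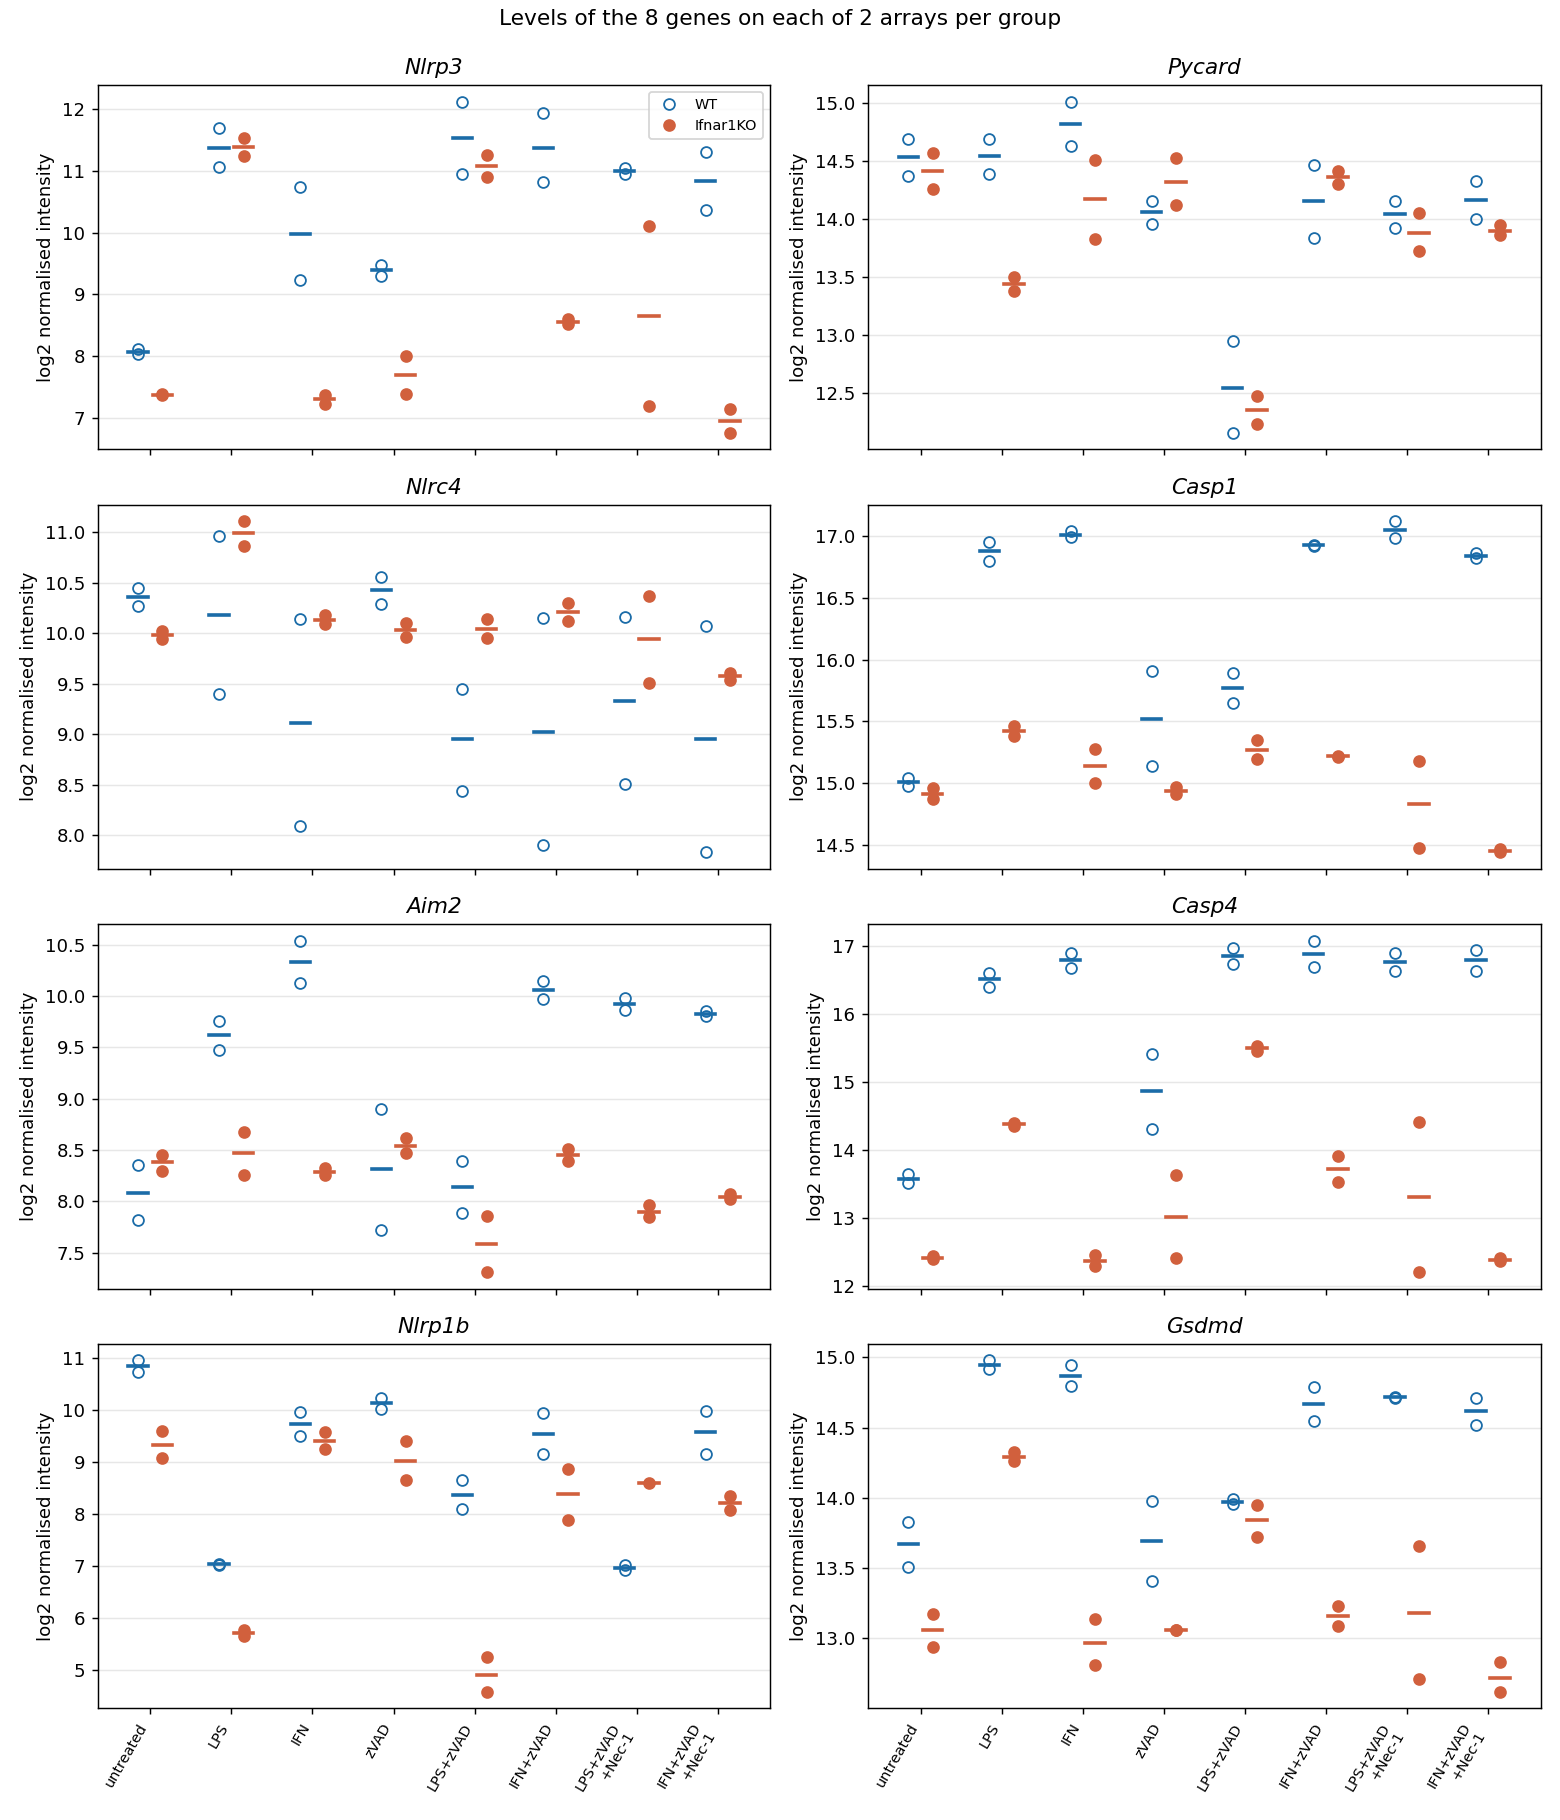
Log2 normalised intensity of each gene (1 panel a gene) in the 8 treatments, with 1 point per array (open, WT; filled, Ifnar1KO) and a bar at each group's mean of 2 arrays. Casp1, Casp4 and Aim2 form a high WT band in most LPS and IFN groups while the Ifnar1KO points stay low with IFN, and Nlrp1b is low in the LPS groups of both genotypes except Ifnar1KO LPS+zVAD+Nec-1, where 1 array is plotted.

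Whether the response needed the interferon receptor was tested as the difference between genotypes in each treatment change, Ifnar1KO minus WT. With LPS, Casp1 (-1.36 log2, SE 0.30, adjusted p = 0.00948) and Aim2 (-1.44, SE 0.41, adjusted p = 0.0423) were called, 2 of 8 genes where 6.63% of all genes were called. The differences for Nlrp3 (0.70, SE 0.92) and Gsdmd (-0.03, SE 0.34) were within their errors, and Casp4 (-0.96, SE 0.68, adjusted p = 0.514) was not called, which does not show that they responded alike. The Aim2 call was lost in the no-filter fit (adjusted p = 0.0734), without WT untreated replicate 1 (-1.17, adjusted p = 0.177), without WT LPS replicate 1 (0.182), without Ifnar1KO untreated replicate 1 (0.101) or 2 (0.123) and without Ifnar1KO LPS replicate 1 (0.172) or 2 (0.0573). It was lost as well, at 0.0518 to 0.0536, without either array of WT LPS+zVAD+Nec-1 or of Ifnar1KO IFN, zVAD, IFN+zVAD or IFN+zVAD+Nec-1.
With IFN, 4 of 8 genes were called where 19.3% of all genes were: Casp4 (-3.24 log2, SE 0.68, adjusted p = 0.00252), Aim2 (-2.34, SE 0.41, adjusted p = 0.000571), Casp1 (-1.77, SE 0.30, adjusted p = 0.000425) and Gsdmd (-1.28, SE 0.34, adjusted p = 0.012). Because IFN called 0% of all genes in Ifnar1KO cells, these differences largely restate the WT change with its sign reversed. The Gsdmd call was lost without WT untreated replicate 1 (adjusted p = 0.0586) and without Ifnar1KO IFN replicate 1 (0.0579). Nlrp3 differed by -2 log2 (adjusted p = 0.143) and was called in a fit without the Ifnar1KO LPS+zVAD+Nec-1 arrays (adjusted p = 0.0314), a fit chosen after seeing the data, and likewise without either of them. zVAD alone gave 0 members and 0% of all genes in limma's test, with 165 genes and none of the 8 at an unadjusted p under 0.05.
IFN+zVAD gave calls for Casp1 (-1.62, adjusted p = 0.00103), Aim2 (-1.9, adjusted p = 0.0033) and Casp4 (-2, adjusted p = 0.0464), where 19.8% of all genes were called. The Casp4 call was the least stable, being present in 15 of 42 alternative fits. It was lost without either array of WT untreated (0.111 and 0.0934), Ifnar1KO untreated (0.106 and 0.101), WT IFN+zVAD (0.0626 and 0.13) or Ifnar1KO IFN+zVAD (0.0653 and 0.144), and at 0.0515 to 0.0563 without either array of the LPS, IFN, LPS+zVAD and IFN+zVAD+Nec-1 groups of either genotype or of WT LPS+zVAD+Nec-1. Nlrp3 (-2.12, adjusted p = 0.116) and Gsdmd (-0.89, adjusted p = 0.0723) were called without the Ifnar1KO LPS+zVAD+Nec-1 pair (0.0228 and 0.0175), or without either array of it, and Gsdmd with the replicate block too (0.0395).

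With LPS+zVAD only Nlrp1b was called among the 8 (-1.95 log2, adjusted p = 0.0158), where 16.3% of all genes were called. Its Ifnar1KO arrays were not well above background, normexp background correction gave -0.54 (adjusted p = 0.485), and the call was lost without WT untreated replicate 1 (0.0581), Ifnar1KO untreated replicate 2 (0.071), WT LPS+zVAD replicate 1 (0.0596) or Ifnar1KO LPS+zVAD replicate 1 (0.0762). Casp1 (-0.4, adjusted p = 0.438), Casp4 (-0.19, adjusted p = 0.895) and Pycard did not pass, and under the 75th percentile shift Casp1 differed by -1.13 and was called (adjusted p = 0.033).
For LPS+zVAD+Nec-1, 3 genes were lower in change in Ifnar1KO and 1 higher, with 18.2% of all genes called: Casp1 (-2.12, adjusted p = 0.000125), Aim2 (-2.31, adjusted p = 0.000762), Casp4 (-2.29, adjusted p = 0.0247) and Nlrp1b (3.14, adjusted p = 0.00118). All rest on the Ifnar1KO pair that stood apart. Without its replicate 2 Casp4 was -1.19 (adjusted p = 0.145). Without replicate 1 Nlrp3 (-3.11, adjusted p = 0.00361) and Gsdmd (-1.39, adjusted p = 0.00153) were called too, and with the replicate block Gsdmd passed (-0.92, adjusted p = 0.0365). The Nlrp1b value comes from 1 Ifnar1KO array, which the test assumes to vary like the others. A fit of the mean of the probes gave 0.99 (adjusted p = 0.489). In that fit replicate 1 of the pair was the second probe alone, at 3.61 and not above background, so 0.99 is no check of the value. Casp4 was also lost without either WT untreated array (0.0677 and 0.0587), either Ifnar1KO untreated array (0.0652 and 0.0642) or either WT LPS+zVAD+Nec-1 array (0.0504 and 0.0713).
With IFN+zVAD+Nec-1, 5 of 8 genes were called where 18.5% of all genes were: Nlrp3 (-3.2, adjusted p = 0.0204), Casp1 (-2.29, adjusted p = 4.12e-05), Casp4 (-3.23, adjusted p = 0.00266), Gsdmd (-1.27, adjusted p = 0.0129) and Aim2 (-2.08, adjusted p = 0.00169). Nlrp3 was lost without WT untreated replicate 2 (0.0609), Ifnar1KO untreated replicate 1 (0.0586) or 2 (0.0537), WT IFN+zVAD+Nec-1 replicate 2 (-2.73, 0.0778) or Ifnar1KO IFN+zVAD+Nec-1 replicate 1 (0.0689). Gsdmd was lost without WT untreated replicate 1 (0.0598), Ifnar1KO untreated replicate 2 (0.0543) or Ifnar1KO IFN+zVAD+Nec-1 replicate 1 (0.0523). The summed neutrophil marker level also moved with the genotype, from 14.14 to 15.24 in WT to 15.9 to 15.92 in Ifnar1KO untreated cells. With IFN it was 14.11 to 15.12 in WT and 15.79 to 15.89 in Ifnar1KO. The fibroblast sum was 8.96 to 9.99 in WT and 11.28 to 12.57 in Ifnar1KO untreated cells. It rests on the collagen genes Col1a1 and Col1a2, as Pdgfra was above background on 0 arrays. The NK cell sum was 4.68 to 5.09 and 6.6 to 6.76 in these groups. Its markers were dim, with Ncr1 above background on 2 arrays and Klrb1c on 17. The lowest well-measured signal was 3.39 and 3.04 on the untreated WT arrays and 4.13 and 4.58 on the untreated Ifnar1KO arrays. The NK cell sums therefore cannot show whether NK cell content differed. The dendritic cell sum moved with treatment in both genotypes. In WT it was 7.37 to 7.48 untreated, 9.86 to 10.37 with LPS and 9 to 9.32 with IFN. In Ifnar1KO cells it was 6.84 to 7.37 untreated, 8.44 to 9.62 with LPS and 6.77 to 7.2 with IFN. Of its markers, Xcr1 was above background on 2 arrays, and Flt3 reached at most 7.92 and Zbtb46 10.46. The WT LPS sums therefore rest mostly on Zbtb46. The part of these markers in the differences was not tested.

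**Figure D3:**
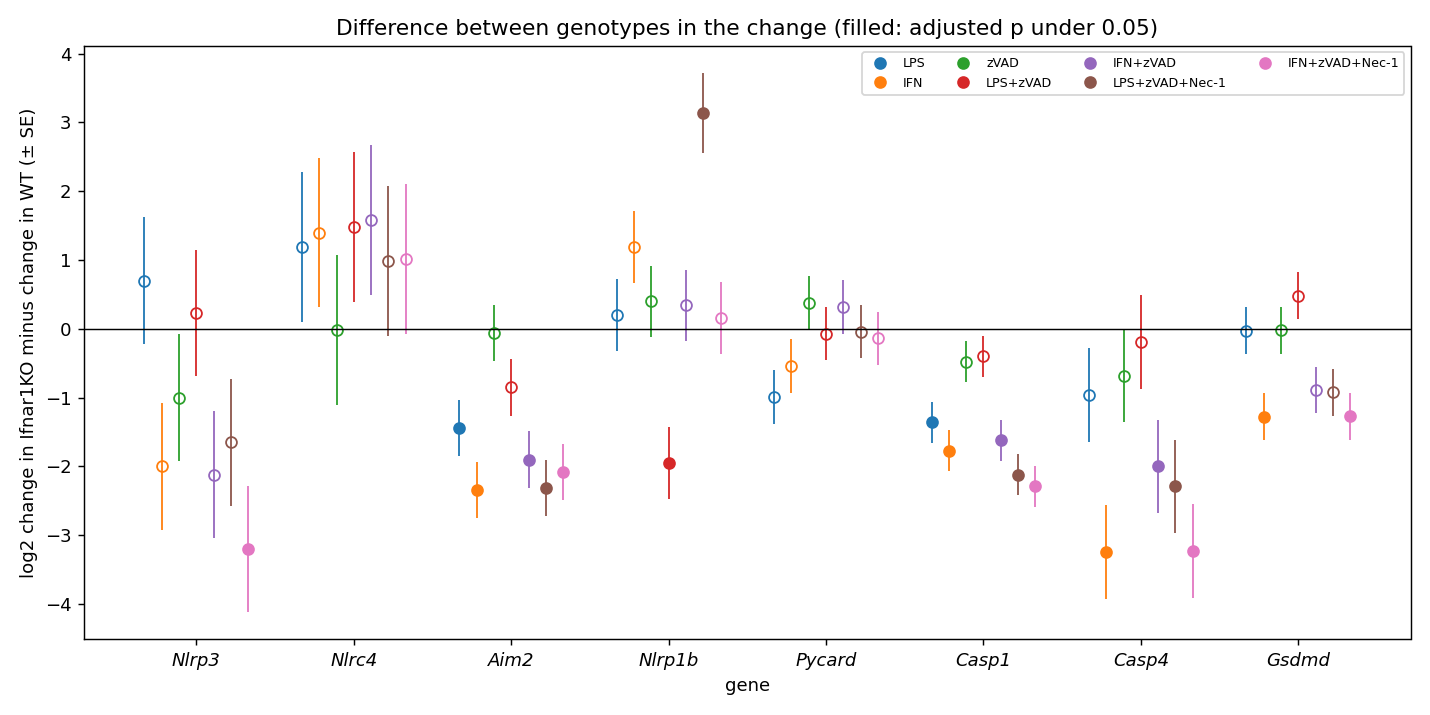
Difference between genotypes in the change from untreated cells (log2 change in Ifnar1KO minus change in WT, ± SE) for each gene, with 1 colour per treatment; filled points have an adjusted p under 0.05 from limma. Filled points lie below 0 for Casp1, Casp4, Gsdmd, Aim2 and Nlrp3, and Nlrp1b has 1 filled point below 0 (LPS+zVAD) and 1 above (LPS+zVAD+Nec-1).

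Untreated cells of the 2 genotypes differed in 1 of 8 genes, Nlrp1b (-1.51 log2 in Ifnar1KO, 2.85-fold lower, adjusted p = 0.0144), where 8.72% of all genes were called. The call was lost when both probes were averaged (-1.01, adjusted p = 0.372), when flagged spots were retained (0.105), and without WT untreated replicate 1 (0.0524), WT untreated replicate 2 (0.129) or Ifnar1KO untreated replicate 1 (0.156). Casp4 was lower by 1.17 log2 (adjusted p = 0.158) and Gsdmd by 0.62 (adjusted p = 0.128). Both were called without the Ifnar1KO LPS+zVAD+Nec-1 pair (0.0248 and 0.0339). Genotype and slide coincide here and cannot be told apart. The neutrophil, fibroblast and NK cell marker sums differed too, with the limits given above for the fibroblast and NK cell sums.

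Adding zVAD to LPS in WT cells lowered 4 of the 8 genes and raised 1, where 34.6% of all genes were called. Pycard fell by 1.99 log2 (3.98-fold, adjusted p = 2.23e-05), Aim2 by 1.48 (2.79-fold, adjusted p = 0.000618), Casp1 by 1.11 (2.16-fold, adjusted p = 0.000502) and Gsdmd by 0.97 (1.96-fold, adjusted p = 0.00356). Nlrp1b, lowered by LPS, was 1.35 log2 higher with zVAD present (adjusted p = 0.00836), a call lost without WT LPS+zVAD replicate 1 (1.06, adjusted p = 0.0847), with the mean of the probes (0.182), in the authors' table (0.0785) and with flagged spots retained (0.0665). Nlrp3 (0.16, adjusted p = 0.893) and Casp4 (0.35, adjusted p = 0.648) were not called. In a fit of the compared arrays alone Casp1 (0.0647), Gsdmd (0.0767) and Nlrp1b (0.0576) were no longer called, and with the replicate block Nlrc4 was called as well (-1.24, adjusted p = 0.024).
In Ifnar1KO cells zVAD on top of LPS lowered Pycard alone (-1.07 log2, 2.11-fold, adjusted p = 0.0201; 8.52% of all genes called). That call was lost without Ifnar1KO LPS replicate 1 (0.0969) or 2 (0.136) and without Ifnar1KO LPS+zVAD replicate 1 (0.195) or 2 (0.0587). Aim2 (-0.89, adjusted p = 0.0681) was called with the replicate block (0.0322) and without either WT zVAD array (0.0196), and Casp4 (1.12, adjusted p = 0.173) without the Ifnar1KO LPS+zVAD+Nec-1 pair or either array of it (0.0312).
zVAD added to IFN changed 0 of the 8 genes in WT cells and 0% of all genes in limma's test, with 639 genes and 2 of the 8 (Nlrp3 and Pycard) at an unadjusted p under 0.05. In Ifnar1KO cells it changed 0 of 8 and 0.00624% of all genes, with 377 genes and 2 of the 8 (Casp4 and Nlrp1b) at an unadjusted p under 0.05.

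Nec-1 added to LPS+zVAD in WT cells moved the same 5 genes the other way: Aim2 rose by 1.78 log2 (3.44-fold, adjusted p = 0.000164), Pycard by 1.49 (2.8-fold, adjusted p = 0.000499), Casp1 by 1.28 (2.43-fold, adjusted p = 0.000198) and Gsdmd by 0.75 (1.68-fold, adjusted p = 0.0248), and Nlrp1b fell by 1.4 (adjusted p = 0.00797). In this comparison 28.4% of all genes were called, and its LPS+zVAD arrays are also those of the zVAD comparison, so opposite signs are partly built in. Gsdmd was lost without WT LPS+zVAD replicate 1 (0.0694) or 2 (0.114), without WT LPS+zVAD+Nec-1 replicate 1 (0.089) or 2 (0.0984), and under the 75th percentile shift (0.0726). Nlrp1b was lost without WT LPS+zVAD replicate 1 (-1.12, adjusted p = 0.078). It was lost also with the mean of the probes (0.189), the authors' table (0.0624) and flagged spots retained (0.0635). A fit of the compared arrays alone called 0 of the 16037 genes, these 5 included, with the same log2 differences.
In Ifnar1KO cells 2 genes rose and 2 fell (19.4% of all genes called). Pycard was 1.52 log2 higher (2.86-fold, adjusted p = 0.00116), close to its change in WT cells. Nlrp3 was 2.43 lower (adjusted p = 0.0143) and Casp4 2.18 lower (adjusted p = 0.00429), and without replicate 2 of the LPS+zVAD+Nec-1 pair these were -0.97 (0.322) and -1.08 (0.0999), and without replicate 1 -3.88 (6.7e-05) and -3.29 (1.29e-05). Nlrp3 was lost too without Ifnar1KO LPS+zVAD replicate 1 (0.0649) or 2 (0.0851). Without replicate 1 of the pair Casp1 (-0.79, adjusted p = 0.0122) and Gsdmd (-1.13, adjusted p = 0.00105) were called lower, and with the replicate block Gsdmd was (-0.65, adjusted p = 0.0329). Nlrp1b was at least 11.6-fold higher on the 1 array retained, a call that assumes that this lone array varies like those of other groups. The mean of the probes gave 1.62 log2 (adjusted p = 0.0665), where replicate 1 of the pair was again the second probe alone, not above background.
After IFN+zVAD, Nec-1 changed 0 of 8 genes in WT cells and 0% of all genes in limma's test, with 621 genes and 0 of the 8 at an unadjusted p under 0.05. In Ifnar1KO cells it changed 0 of 8, where 1.61% of all genes were called. At an unadjusted p under 0.05 there were 1608 genes and 3 of the 8, Nlrp3 (-1.61), Casp1 (-0.76) and Casp4 (-1.32). Casp1 was called with the replicate block (0.0411), without either WT zVAD array (0.033) and without either array of the Ifnar1KO LPS+zVAD+Nec-1 pair (0.0244), and Casp4 without either array of that pair (0.0302).

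**Figure D4:**
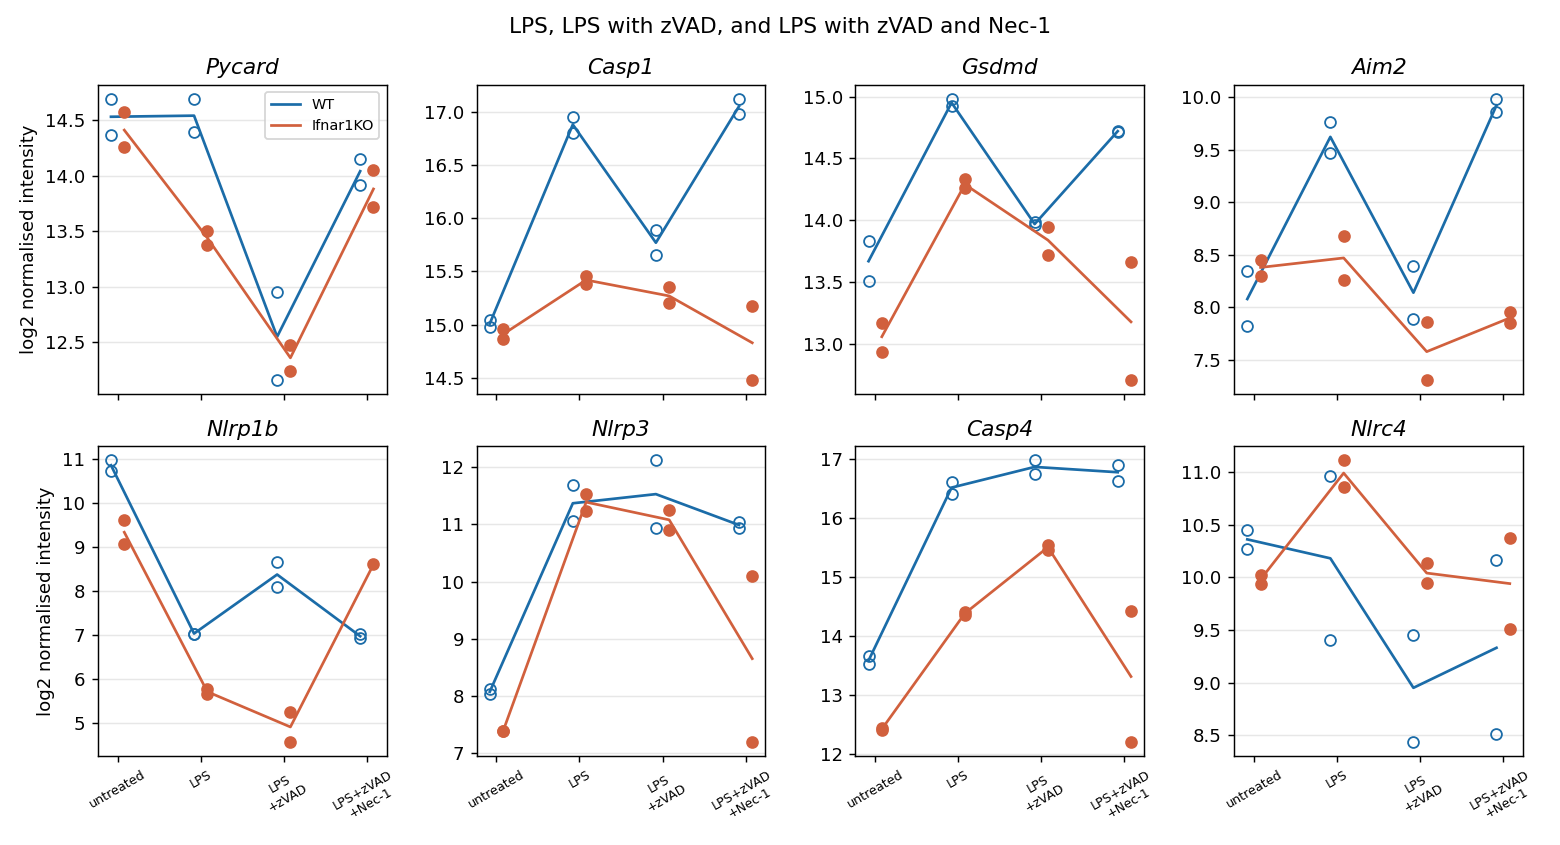
Log2 normalised intensity of each gene in untreated cells and with LPS, LPS+zVAD and LPS+zVAD+Nec-1. Points are arrays and lines join the means of 2 arrays in WT and Ifnar1KO cells. For Nlrp1b the Ifnar1KO LPS+zVAD+Nec-1 value is that of the 1 array retained. Pycard dips with LPS+zVAD and returns with Nec-1 in both genotypes, Casp1, Gsdmd and Aim2 do so in WT, and Nlrp3 and Casp4 lie lower with Nec-1 on both Ifnar1KO arrays, on replicate 2 by far the more.

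The order of the 16 group levels separated few neighbours. Of 15 steps from the highest to the lowest group mean, the arrays of neighbouring groups did not overlap in 7 for Nlrp1b, 5 each for Nlrp3, Casp1 and Gsdmd, 4 each for Casp4 and Aim2, 2 for Pycard and 1 for Nlrc4. Such steps were not counted for other genes, so these counts do not set the 8 genes apart. For Nlrp1b the Ifnar1KO LPS+zVAD+Nec-1 group was 1 array. Nlrp1b had the widest gaps of the 8 genes, 1.25 log2 between WT LPS+zVAD+Nec-1 (6.97) and Ifnar1KO LPS (5.71) and 1.19 between Ifnar1KO IFN+zVAD+Nec-1 (8.21) and WT LPS (7.03). Casp1 had a gap of 1.07 log2 between WT IFN+zVAD+Nec-1 (16.84) and WT LPS+zVAD (15.77), and Casp4 one of 1.01 between WT LPS (16.51) and Ifnar1KO LPS+zVAD (15.5). For Aim2 the gap of 1.07 log2 fell between 5 of the WT groups given LPS or IFN, the lowest being WT LPS (9.62), and all other groups, WT LPS+zVAD (8.14) among them, the highest being Ifnar1KO zVAD (8.54). In Pycard the LPS+zVAD groups of WT (12.55) and Ifnar1KO (12.36) were at the bottom, 0.89 log2 under Ifnar1KO LPS (13.44), and they overlapped each other.
Across the 16 group means, as a description of arrays that share treatments, Casp1 had a Pearson r of 0.93 with Gsdmd, 0.91 with Aim2 and 0.9 with Casp4, and Nlrp3 had 0.9 with Casp4. Pycard and Nlrc4 correlated with Casp1 at 0.21 and -0.55. The genes of the array most like each member in this measure were Traf1 (0.984) for Nlrp3, Dync1i2 (0.982) for Aim2, Tbc1d5 (0.953) for Nlrp1b, Stard4 (0.961) for Nlrc4, Fhad1 (0.905) for Pycard, Pdzd11 (0.981) for Casp1, Tapbp (0.989) for Casp4 and Ctsc (0.991) for Gsdmd.

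A list of 32 further genes of the pathway, all measured, gives the surroundings of these 8. With LPS in WT cells 13 rose and 8 fell, where 41.7% of all genes were called, and with IFN 13 rose and 5 fell, where 36.1% were. The guanylate-binding and immunity-related GTPases, which open pathogen vacuoles and bacterial membranes to caspase-11, rose in 5 of 5 with either: with LPS from 2.34 log2 for Irgm1 to 5.98 for Gbp5, and with IFN from 3.31 for Irgm1 to 6.22 for Gbp5 (adjusted p = 4.79e-07 to 0.00118 over the 5 with LPS). Among 8 substrates and effectors 5 rose with LPS, from Il18bp, the decoy for IL-18 (1.71), to Il1a (9.92, above background on 1 of 2 untreated arrays), and Gsdme, another gasdermin, fell (-1.64). With IFN 4 rose, from Chmp4b, a membrane repair component (1.4), to Il1rn, the IL-1 receptor antagonist (5.54), and Ninj1, which ruptures the membrane of dying cells, fell (-0.87).
Of 9 regulators 1 rose with LPS, Casp8 (0.64), and 5 fell, from Nek7, an NLRP3 partner (-0.94), to P2rx7, the ATP-gated channel (-2.59). IFN raised Brcc3 (1.04) and Casp8 (1.62) and lowered 4, from Panx1 (-0.7) to Card9 (-1.86). Among 10 sensors LPS raised Ifi204 (1.72) and Mefv, the gene for pyrin (3.75), and lowered Naip1 (-1.07) and Nlrp10 (-2.7), while IFN raised Naip6 (1.16) and Ifi204 (2.06).
In Ifnar1KO cells LPS raised 10 of the 32 and lowered 6 (25.2% of all genes called), and IFN changed 0 (0% of all genes). The GTPases Gbp3 (4.57), Gbp2 (6.38) and Gbp5 (8.26) rose with LPS, and Il1a, below background on both untreated arrays, was at least 1580-fold higher (adjusted p = 4.19e-05). The difference between genotypes in the IFN change was called for 12 of the 32 (19.3% of all genes), 11 lower in Ifnar1KO, led by Gbp5 (-5.93), Gbp2 (-5.34) and Il1rn (-5.34), and 1 higher, Card9 (2.06). With LPS it was called for 9 (6.63% of all genes), 7 of them lower, from Casp8 (-1.12) to Il1rn (-4.61), and Card9 (1.89) and Panx1 (2.42) higher. Adding zVAD to LPS in WT cells raised 4 and lowered 5 of the 32, a smaller share than the 34.6% of all genes, with Nek7 (0.88), Irgm1 (1.17), Il1rn (1.22, adjusted p = 0.05 after rounding) and Gm12250, which encodes Irgb10 (1.34), higher and Txnip, an NLRP3 partner (-2.53), lower, and adding Nec-1 raised 6 and lowered 0, again a smaller share than the 28.4% of all genes, from Panx1 (0.93) to Txnip (1.82).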

How the data were processed

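RNA from 32 samples was hybridised by the authors to 1-colour Agilent 8x60K arrays. The deposited scanner files hold intensity values (gProcessedSignal, background-subtracted and detrended by Feature Extraction 11.5.1.1), and their flags, also deposited, are read as another kind of value, 0 or 1. The authors' own table holds log2 values after quantile normalisation (r = 0.983 to 0.995 with those used here, column medians 7.61 to 7.8); its exact scale is not stated, and it served as an alternative.

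Spots flagged as outliers were left out, log2 intensities were quantile-normalised, spots of a probe were averaged, and a probe had to be well above background on 50% of arrays or more. The brightest probe stood for a gene. A group-means model was fitted in limma 3.58.1 (R 4.3.3; 16 residual degrees of freedom) to 16037 genes, with Benjamini-Hochberg adjustment in each of 30 comparisons. No comparison of levels between genes was made. Array data carry no read depth: the number of arrays limits the precision.

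Named were the 8 genes, a 32-gene pathway list (by counts, with the largest and smallest called changes of each class and the other genes a count refers to) and the gene most correlated with each member over 16 group means. The members and lists were chosen with earlier results of these data known. Alternatives were normexp background correction (offset 50), a 75th percentile shift, no filter, mean of probes, retained flagged spots, the authors' table, only the compared arrays, slide as a fixed replicate block or a random block, leaving out each array, and, chosen after seeing the data, leaving out the Ifnar1KO LPS+zVAD+Nec-1 arrays. The fits were also run on simulated data whose noise was independent between arrays. That check lacks the correlation within slides found in these data (0.389) and does not cover it.

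The replicate numbers coincide with slides within a genotype. Deviations of same-numbered arrays correlated in all 56 pairs of groups of a genotype (r = 0.17 to 0.67) and less between genotypes (0 to 0.33), so the numbers were taken to pair arrays within a genotype. Exon positions and protein sequences were not used here. The result of 1 of the 10 sequence patterns searched is not reported here.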

Additional observations from a re-analysis of the deposited data

Results flagged for a closer look

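The difference between Ifnar1KO and WT cells in the change from untreated cells was called for 0% to 19.8% of all genes over the 7 treatments. Among the 8 genes it was called in 19 tests (Ifnar1KO minus WT, log2, limma adjusted p), and no explanation was weighed. With LPS these were Casp1 (-1.36, adjusted p = 0.00948) and Aim2 (-1.44, adjusted p = 0.0423). With IFN they were Casp1 (-1.77, adjusted p = 0.000425), Casp4 (-3.24, adjusted p = 0.00252), Gsdmd (-1.28, adjusted p = 0.012) and Aim2 (-2.34, adjusted p = 0.000571). Because IFN called 0% of all genes in Ifnar1KO cells, which lack IFNAR1, these IFN differences largely restate the WT change with its sign reversed. The IFN+zVAD and IFN+zVAD+Nec-1 tests below share this limit in part.

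With LPS+zVAD the test was passed by Nlrp1b (-1.95, adjusted p = 0.0158), whose Ifnar1KO arrays were not well above background. With IFN+zVAD it was passed by Casp1 (-1.62, adjusted p = 0.00103), Casp4 (-2, adjusted p = 0.0464) and Aim2 (-1.9, adjusted p = 0.0033).

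With LPS+zVAD+Nec-1 Casp1 (-2.12, adjusted p = 0.000125), Casp4 (-2.29, adjusted p = 0.0247), Aim2 (-2.31, adjusted p = 0.000762) and Nlrp1b (3.14, adjusted p = 0.00118) passed. The Ifnar1KO pair behind them stood apart, and for Nlrp1b only 1 of its arrays was retained, which the test assumes to vary like the others. With IFN+zVAD+Nec-1 Nlrp3 (-3.2, adjusted p = 0.0204), Casp1 (-2.29, adjusted p = 4.12e-05), Casp4 (-3.23, adjusted p = 0.00266), Gsdmd (-1.27, adjusted p = 0.0129) and Aim2 (-2.08, adjusted p = 0.00169) passed. Groups of 2 arrays are too small for a test of single outlying arrays.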

How the results depend on the processing

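Member calls numbered 35 for treatment in WT, 11 for treatment in Ifnar1KO, 19 for differences between genotypes, 6 for added zVAD, 9 for added Nec-1 and 1 between untreated genotypes. They cover 8 genes in 7 comparisons each for the first 3 counts, 4 each for zVAD and Nec-1, and 1. The shares of all genes called per comparison were 0.00624% to 51.3%, 0% to 29%, 0% to 19.8%, 0% to 34.6%, 0% to 28.4% and 8.72% in the same order. Leaving out 1 array of the groups compared gave 31 (without WT untreated replicate 2) to 35, 9 (without Ifnar1KO untreated replicate 1) to 14 (without Ifnar1KO LPS+zVAD+Nec-1 replicate 2), 13 (without WT untreated replicate 1) to 24 (without Ifnar1KO LPS+zVAD+Nec-1 replicate 1), 5 to 6, 7 (without WT LPS+zVAD replicate 1) to 13 (without Ifnar1KO LPS+zVAD+Nec-1 replicate 1), and 0 to 1. The authors' table gave 3 calls for added zVAD, and a fit of the compared arrays alone gave 0 for added Nec-1, where it called 0 of all 16037 genes in both comparisons after LPS+zVAD. Between untreated genotypes the count was 0 with the mean of the probes, the authors' table or flagged spots retained, 2 with the compared arrays alone, and 3 without the Ifnar1KO LPS+zVAD+Nec-1 arrays. The replicate block paired arrays by slide and gave 39, 11, 22, 8 and 11, losing no call. The block could not be fitted for untreated genotypes, where slide and genotype coincide. It also raised calls over all genes, from 1063 to 2642 for the LPS difference between genotypes and from 1367 to 3120 for zVAD added to LPS in Ifnar1KO cells. Over single genes, 3322 of 3500 alternative values kept their side of the threshold, 120 lost and 58 gained a call, and no called value changed sign. Most of the 3500 belong to changes that were not called. Where the change had been called, 1063 of 1183 alternative values were still called. Among values called in neither fit, 128 changed sign. The causes were not tested. With 2 arrays a group, a change that misses the threshold may still be present, and Nlrp1b was near background in Ifnar1KO LPS+zVAD cells.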
